A study of Mus musculus with 13 samples.

Results

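In newborn mouse epidermis, 3859 of 16124 cells with basal keratins carried transcripts of both Dcn and Fst. They were counted in all 5 libraries taken at birth (P0). Dcn encodes decorin, a small leucine-rich proteoglycan best known from the dermal matrix, and Fst encodes follistatin, a secreted protein that binds activins. A cell was counted as a Dcn and Fst positive cell when it had at least 2 unique molecular identifiers (UMIs, tags that each mark 1 captured transcript) of each gene. It also had to have at least 20 UMIs of Krt5 and Krt14 per 10000, and a sum of Krt1 and Krt10 of at most 0.5 times the sum of Krt5 and Krt14. At most 2 UMIs of Col1a1 and Col3a1 together and no UMI of Krt27 or Krt28 were allowed. The other 12265 cells that met the keratin, collagen and root sheath limits but missed the Dcn or the Fst limit are called other basal-keratin cells. Barcodes with fewer than 900 or more than 7700 genes, or with over 10% of their UMIs from mitochondrial genes, had been left out, which kept 34852 of the 35751 barcodes at P0. The 13 libraries of the whole series hold 97363 barcodes.

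The series compares skin of WT mice with that of mice lacking Grhl3, a Grainyhead-like transcription factor of the surface epithelium, before and at birth. At P0 there were 2 WT and 2 Grhl3-/- libraries of back epidermis from littermates, and 1 further WT library that the labels call Chromium v1, from an earlier experiment of its own. The protocol text of that library names v2 chemistry, against its title, so its chemistry is uncertain and Chromium v1 is used here as a name only. All mice were C57BL/6 and untreated, and every library is droplet sequencing of whole cells by the 10x Genomics 3′ method. All Grhl3-/- animals had an open spine, and the skin was taken near the forelimbs, away from that defect. The epidermis was lifted off the dermis with dispase and dead cells were removed, so what is counted here are the cells that survived both steps. Each library is 1 animal, and the Chromium v1 library has no replicate.

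Krt5 and Krt14 are the keratins of the basal layer of the epidermis and of the outer layers of the hair follicle, so the keratin limits hold cells of both. Around birth, hair follicles are still growing down from the epidermis, under Wnt, Hedgehog and ectodysplasin signals and their modulation by bone morphogenetic proteins (BMPs), activins and TGF-beta. Follistatin, decorin, glypicans and Smoc2 are all proteins of the cell surface or the matrix that bind such ligands or alter their action.

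The Dcn and Fst positive cells numbered 589 in WT 1, 709 in WT 2, 1097 in Grhl3-/- 1, 647 in Grhl3-/- 2 and 817 in the Chromium v1 WT library. Dcn (ENSMUSG00000019929, chr10:97479609-97518143, plus strand, GRCm38) had a median of 7, 10, 10, 9 and 6 UMIs per cell in these libraries, in the same order. Fst (ENSMUSG00000021765, chr13:114452290-114458951, minus strand) had a median of 4, 5, 4, 5 and 5 UMIs. The cells were chosen by these measured counts, which are given without a test. Just inside the limits, 93, 94, 104, 83 and 133 of the cells had exactly 2 UMIs of Dcn, and 145, 145, 255, 139 and 161 had exactly 2 of Fst. Just outside, 195, 218, 182, 145 and 226 cells missed the class with 1 UMI of Dcn, and 262, 241, 393, 214 and 200 with 1 UMI of Fst. The limits therefore run through a continuous range of counts, and the class has no gap around it.

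The 3 further genes by which the class was named were detected in both classes. Levels are given in CPM, the UMIs of a gene per 1000000 UMIs summed over the cells of 1 class in 1 library. Smoc2 (ENSMUSG00000023886, chr17:14279506-14404790, plus strand) encodes a secreted calcium-binding matrix protein. Its level in the Dcn and Fst positive cells was 260.4 CPM in WT 1, 229.7 in WT 2, 226 in Grhl3-/- 1, 213 in Grhl3-/- 2 and 204 in the Chromium v1 WT library, against 203, 171, 171, 139.5 and 152 CPM in the other cells. Gpc3 (ENSMUSG00000055653, chrX:52272426-52613950, minus strand), a glypican that binds Hedgehog and Wnt ligands, stood at 222 CPM in WT 1, 273 in WT 2, 107 in Grhl3-/- 1, 146 in Grhl3-/- 2 and 143 in the Chromium v1 WT library, against 179.5, 203, 103, 113 and 110.2. Lmo1 (ENSMUSG00000036111, chr7:109138572-109175207, minus strand), a LIM-only transcriptional cofactor, stood at 619 CPM in WT 1, 713 in WT 2, 883 in Grhl3-/- 1, 779 in Grhl3-/- 2 and 1230.2 in the Chromium v1 WT library, against 492, 571, 660.2, 596 and 1062. Each of the 3 was higher in the Dcn and Fst positive cells of every library, by less than a doubling in each case. This did not hold against the cells past 1 limit only. Past the Dcn limit alone Gpc3 was higher in every library, at 266, 367, 156, 175 and 187 CPM, in the same order. Smoc2 stood at 230 CPM there in Grhl3-/- 1. In the cells of Grhl3-/- 2 past the Fst limit alone Smoc2 stood at 232 CPM and Lmo1 at 793, above the class too. They helped to name the class, so no test between the classes is attached to them.

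The cells were epithelial by their markers. Epcam, an adhesion molecule of epithelia, stood at 249 CPM in WT 1, 299 in WT 2, 249 in Grhl3-/- 1, 321 in Grhl3-/- 2 and 277 in the Chromium v1 WT library in the Dcn and Fst positive cells. The other cells had 273, 335, 276, 325 and 249.7 CPM, in the same order, and the classes overlapped. Collagen limits removed few cells, 0 to 6 per library. Of the Dcn and Fst positive cells 98.6% to 99.8% had no UMI of Col1a1 or Col3a1 at all. This is a description only, since the rule limits both genes. The limit on Krt27 and Krt28, keratins of the inner root sheath, removed 132 to 168 cells per library. The 10 fibroblast markers summed to 38.0 to 69.6 CPM in the Dcn and Fst positive cells and to 24.6 to 40.6 CPM in the other cells. Col1a1 and Col3a1, which the rule limits, are among these 10. Lum, which like Dcn is a proteoglycan of fibroblasts, was at 0.512 to 1.43 CPM, and Pdgfra had a UMI in 0% to 0.849% of the cells. Col1a2 was higher in the Dcn and Fst positive cells of all 5 libraries, at 10.8 to 34.1 CPM against 6.00 to 15.5 CPM (log2 fold change 0.97, SE 0.09, adjusted p = 1.06e-05). Of the 6 fibroblast markers tested, Col5a2 (0.56) and Col6a1 (0.80) were higher as well and none was lower, with a median of 0.56, and their part in the results was not tested. Melanocyte markers summed to 302 to 726 CPM against 299 to 916 CPM in the other cells, Langerhans and macrophage markers to 47.2 to 248 CPM against 89.8 to 291 CPM (6 of 7 lower by the test, none higher), and sebaceous markers to 59.9 to 165 CPM against 150.1 to 631 CPM (5 of 5 lower). Over all genes tested between the classes, 12.2% were higher and 12.9% lower. The markers of T cells, Merkel cells, dermal papilla, blood, endothelium and pericytes each summed to at most 16.2 CPM in the Dcn and Fst positive cells. The part of RNA from other cells in the differences given here was not tested.

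Free RNA in the droplets also gives UMIs of Dcn and Fst, so the shares were read in cell types that should lack them. Both limits were met by 3.68% to 7.58% of the cells with melanocyte markers and by 0% to 1.49% of those with MHC class II and Ptprc. At 3000 UMIs per cell, a Dcn UMI was seen in 77.8% to 84.7% of the Dcn and Fst positive cells, a value set by the rule and read as a description only, in 11.03% to 16.3% of melanocyte-marker cells and in 6.52% to 11.5% of MHC class II cells. For Fst it was 66.0% to 79.6%, 5.58% to 9.32% and 2.48% to 8.20%. The other basal-keratin cells lay between, with 26.8% to 35.2% for Dcn and 20% to 35.1% for Fst, above the background of each library. Median depth was 8917 to 12737 UMIs in the Dcn and Fst positive cells and 6842 to 9182 in the other basal-keratin cells. It was 5983 to 8821 in melanocyte-marker cells and 5896.5 to 7637 in MHC class II cells. The Dcn and Fst positive cells were thus deeper in every library, and 4.65% to 6.80% of them were among the 5% of barcodes with the highest doublet scores, against 2.65% to 4.14% of the other basal-keratin cells.

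When all kept cells of a library were clustered without the genes of the rule, the Dcn and Fst positive cells did not form a cluster of their own. The cluster with most of them held 26.9% to 33.6% of them, and the first 4 clusters together 68.3% to 86.3%. Some of these clusters were led by genes of mitosis such as Cenpf, Nusap1 and Top2a. Others were led by H19, Slc1a3, Igfbp2 and Wnt4, by Fn1, Fgf20, Has3 and Tmem100, or by Shh, Fam13a and Pdzrn3, which names no cell type here. Of the clusters listed for each library, the one with the largest fraction of Dcn and Fst positive cells was in the Chromium v1 WT library, with 158 of its 301 cells, and was led by Pltp, Serpinb1b and Pdgfc. In Grhl3-/- 1 a cluster of 344 cells led by Ccer2, Krt8 and Krt18 held 162 of them. Basal-keratin cells of either class made up 91.0% of that cluster. Merkel cell markers, Krt8 and Krt18 among them, summed to 2.75 CPM over all Dcn and Fst positive cells of that library. Cells past the Dcn limit were more often past the Fst limit than cells below it, while cells past 1 limit only outnumbered those past both in every library. Of the basal-keratin cells past the Dcn limit, 45.4% to 63.8% were also past the Fst limit, against 25.4% to 44.0% of those below the Dcn limit, a description in cells that also differ in depth.

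The counts were then summed per class and library, and the Dcn and Fst positive cells were set against the other basal-keratin cells of the same library. The genes tested here are not those of the rule, but they were counted in the same cells. Of 13514 genes tested with edgeR (quasi-likelihood test, library as a block, Benjamini-Hochberg adjusted p under 0.05), 3404 (25.2%) differed, 1655 (12.2%) higher and 1749 (12.9%) lower. Among these, 63 were higher and 339 lower by at least 2-fold (a log2 fold change of 1). Genes that differed in the same direction in all 5 libraries made up 31.4% of those tested. Among cells of 5000 to 20000 UMIs, which brings the depths of the classes closer, 1946 genes differed. In the few cells without a UMI of 7 follicle and sebaceous markers, 28 to 292 Dcn and Fst positive cells per library, 299 differed. Here and for the other comparisons, the genes with the largest differences are those among called genes whose average reached 5 on the log2 CPM scale and whose libraries all went 1 way or did not overlap, without the rule genes and mitochondrial, ribosomal and unnamed genes, so genes outside these limits may differ by more. Of the 12 such genes with the largest difference upward, Slc1a3 (0.02), Bmp2 (0.36), Pou3f1 (0.18) and Satb1 (0.22) were not called there.

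Matrix and Wnt pathway genes were among the largest differences upward. Has3 (ENSMUSG00000031910, chr8:106870242-106884566, plus strand), a synthase of hyaluronan, stood at 61.5 CPM in WT 1, 72.4 in WT 2, 50.2 in Grhl3-/- 1, 48.1 in Grhl3-/- 2 and 29.1 in the Chromium v1 WT library in the Dcn and Fst positive cells. In the other cells it stood at 29.1, 33.8, 20.8, 18.98 and 13.6 CPM, in the same order, and was higher in the first class in every library by about the same factor (log2 fold change 1.19, SE 0.05, adjusted p = 5.92e-08). Fn1 (ENSMUSG00000026193, chr1:71585520-71653200, minus strand), the matrix protein fibronectin, stood at 211 CPM in WT 1, 299.6 in WT 2, 166 in Grhl3-/- 1, 170.3 in Grhl3-/- 2 and 72.1 in the Chromium v1 WT library, against 111, 141, 88.7, 83.5 and 41.6 (log2 fold change 0.96, SE 0.05, adjusted p = 1.22e-07). The Chromium v1 WT library had the lowest Fn1 level of both classes, and the class difference was present there too. Slc1a3, a glutamate transporter, was higher by a log2 fold change of 1.02 (SE 0.13), with the difference in the Chromium v1 library the smallest of the 5. Where 12.2% of all genes were higher and 12.9% lower, 18 of 28 tested matricellular and basement membrane genes were higher and 2 lower. Their median log2 fold change was 0.34 against 0.00 over all genes. Postn (log2 fold change 0.54, SE 0.09, adjusted p = 0.00132) and Tnc (0.54), matricellular proteins of remodelling tissue, were among them. Of 14 genes of hemidesmosomes and integrins, which anchor basal cells to that membrane, 8 were higher and 1 lower. Col17a1 was higher by 0.50 (SE 0.07). In the cells without follicle and sebaceous markers Postn and Col17a1 had log2 fold changes of -0.13 and -0.17 and were not called, while Fn1 and Has3 kept theirs at 1.28 and 1.01.

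Most Wnt ligands were higher. Among 11 tested ligands, 8 were higher and Wnt5a was lower, with a median log2 fold change of 0.51. Over all genes 12.2% were higher and 12.9% lower. Wnt7a stood at 10.96 CPM in WT 1, 8.61 in WT 2, 23.9 in Grhl3-/- 1, 10.02 in Grhl3-/- 2 and 8.82 in the Chromium v1 WT library, against 5.33, 4.16, 11.4, 4.87 and 7.35 (log2 fold change 0.92, SE 0.12, adjusted p = 0.000150). Wnt3 was higher by 0.66, Wnt10b by 0.64 and Wnt7b by 0.51 in all 5 libraries. In cells without follicle and sebaceous markers Wnt3 stood at -0.22. Wnt4 changed sign with the cells taken, with a log2 fold change of 0.21 (adjusted p = 0.0202) that became -0.12 between 5000 and 20000 UMIs and -0.71 (adjusted p = 7.33e-06, edgeR) in cells without follicle and sebaceous markers. Of 26 receptors and effectors 11 were higher and 6 lower, with a median of 0.17. Lef1 (ENSMUSG00000027985, chr3:131110471-131224356, plus strand), the DNA-binding partner of beta-catenin, stood at 69.2 CPM in WT 1, 79.5 in WT 2, 135 in Grhl3-/- 1, 82.98 in Grhl3-/- 2 and 71.4 in the Chromium v1 WT library. The other cells had 32.9, 34.7, 65.05, 40.2 and 46.1 CPM, and every library had the higher level in the Dcn and Fst positive cells (log2 fold change 1.01, SE 0.07, adjusted p = 2.01e-06). The receptor Fzd10 (ENSMUSG00000081683, chr5:128600844-128604093, plus strand) was higher by 0.97 (SE 0.06, adjusted p = 9.60e-07). Sp5, a target of the pathway, was higher in 4 of 5 libraries (log2 fold change 0.73, SE 0.12, adjusted p = 0.00110), and the feedback genes Axin2 (0.42), Znrf3 (0.63) and Rnf43 (0.56) were higher in all 5. The 6 lower genes were Lgr5, the R-spondin receptor of follicle stem cells (-1.39), its relative Lgr4, and the receptors Fzd1, Fzd4, Fzd5 and Fzd7. Of 9 secreted inhibitors none was higher and only Sfrp1 was lower (log2 fold change -1.28, SE 0.08, adjusted p = 7.08e-07), a count near the share over all genes. In cells without follicle and sebaceous markers the sign turned for Axin2 (-0.092), Fzd7 (0.33) and Sfrp1 (0.18).

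Since Lef1 and its partners bind the letters CTTTGA, the 250 bases before the start of Sp5, Lef1 and Fzd10, which carry the Wnt pathway result above, were searched for them on both strands, the reverse being TCAAAG. The sequences are from RefSeq (GRCm38.p6), 15 of 28 genes looked up had an entry, and 13.8% of all 32851 promoters of that length hold the letters on either strand. The sequences below are printed in the direction of transcription with matches in capitals. The first is Sp5 (chr2:70474673-70474922, plus strand), then the last of 4 starts of Lef1 (chr3:131156044-131156293, plus strand), then Fzd10 (chr5:128600856-128601105, plus strand).
Sp5: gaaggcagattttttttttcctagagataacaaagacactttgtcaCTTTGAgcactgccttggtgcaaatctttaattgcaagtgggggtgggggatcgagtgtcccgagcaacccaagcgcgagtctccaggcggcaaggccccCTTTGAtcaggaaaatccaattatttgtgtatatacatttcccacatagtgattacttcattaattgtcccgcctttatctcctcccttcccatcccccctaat
Lef1: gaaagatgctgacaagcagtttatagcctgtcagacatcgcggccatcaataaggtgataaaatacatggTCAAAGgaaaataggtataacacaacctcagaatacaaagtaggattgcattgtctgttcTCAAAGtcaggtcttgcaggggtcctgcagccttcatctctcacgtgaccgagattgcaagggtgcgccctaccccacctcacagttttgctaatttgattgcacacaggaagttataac
Fzd10: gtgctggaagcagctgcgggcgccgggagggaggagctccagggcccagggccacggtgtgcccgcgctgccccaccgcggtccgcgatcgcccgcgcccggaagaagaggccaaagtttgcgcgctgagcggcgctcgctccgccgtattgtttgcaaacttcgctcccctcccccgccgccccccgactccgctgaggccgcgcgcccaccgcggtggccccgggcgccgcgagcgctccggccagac
Sp5 has 2 matches, the first beginning 204 bases before the start, and this start of Lef1 has 2 on the reverse strand, the first 180 bases before it. The RefSeq start of Fzd10 lies downstream of the gene start given above, so this window falls inside the gene as annotated there. The Lef1 window printed here lies at an internal start, far inside its gene. The window of the first start of Lef1 (chr3:131110047-131110296), which ends just before the printed gene start, holds no match. Which start was used in these cells was not tested. Fzd10 has none in this window, nor have the other 3 starts of Lef1. A match describes the letters and is no evidence of binding in these cells.

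Some Hedgehog and ectodysplasin genes were higher as well. Shh, the ligand itself, did not pass the test (log2 fold change 0.31, SE 0.15, adjusted p = 0.140) and was higher in 3 of 5 libraries. Ptch1, the main receptor, was higher by 0.50 (SE 0.05) and the factor Gli1 by 0.30 (SE 0.06). In all, 6 of 12 tested Hedgehog genes were higher and none lower, with a median of 0.31. Over all genes 12.2% were higher and 12.9% lower. Of the 4 tested ectodysplasin genes, which act in the placodes from which hair follicles grow, 3 were higher with a median of 0.55. These were the receptor Edar (log2 fold change 0.69, SE 0.07, adjusted p = 2.70e-05), its adaptor Edaradd (0.41) and the related receptor Tnfrsf19 (0.72). Against the cells past the Dcn limit alone none of the 4 passed the test, with a median of -0.064. In that comparison 9.77% of all genes were higher and 9.86% lower.

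**Figure D1:**
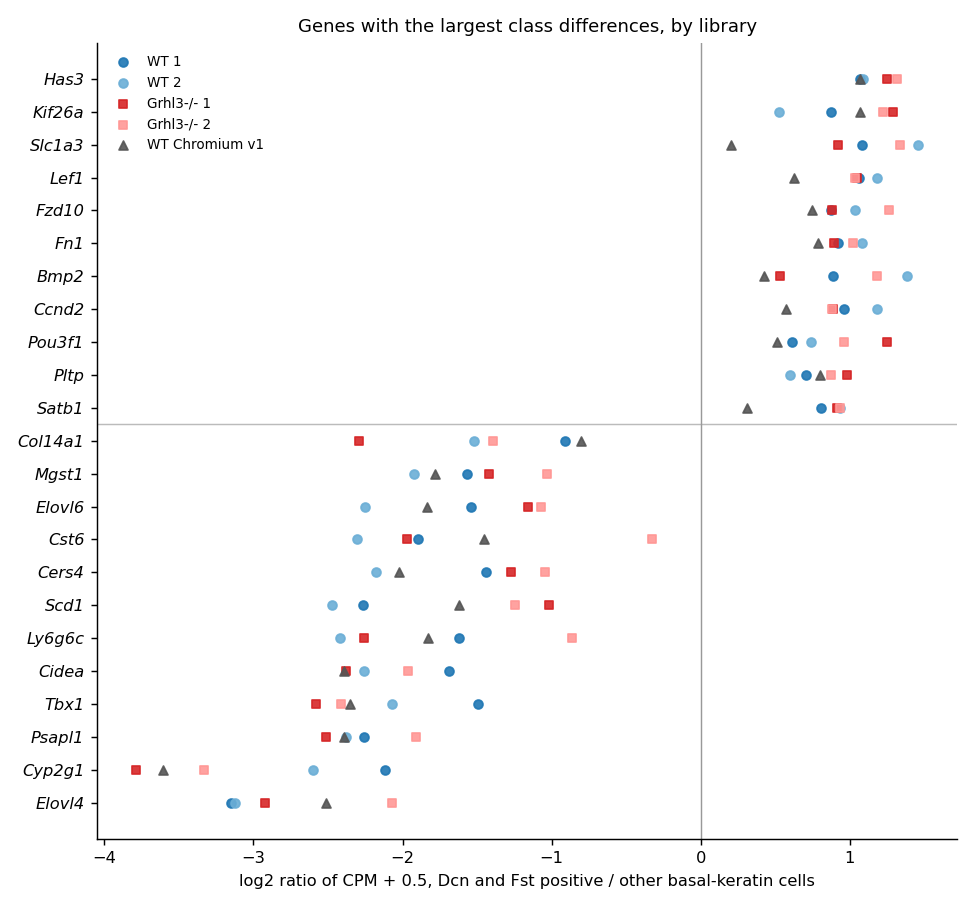
Log2 ratio of CPM (with 0.5 added) between Dcn and Fst positive cells and the other basal-keratin cells, 1 point per library, for genes among the 12 with the largest difference in each direction, 11 higher and 12 lower. All 5 libraries lie right of 0 for the upper 11 genes and left of 0 for the lower 12, where Elovl4 and Cyp2g1 are farthest out. A shared direction in all 5 libraries was a condition for choosing these genes.

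Genes of the follistatin and decorin pathways themselves went in more than one direction, where 12.2% of all genes were higher and 12.9% lower. Of 10 ligands of the TGF-beta family, Bmp2 and Bmp7 were higher and Bmp4, Inhbb, Tgfb2 and Tgfb3 were lower. Bmp2 stood at 111 CPM in WT 1, 139.7 in WT 2, 46.1 in Grhl3-/- 1, 82.8 in Grhl3-/- 2 and 42.8 in the Chromium v1 WT library, against 59.8, 53.3, 31.8, 36.2 and 31.8 (log2 fold change 0.92, SE 0.11, adjusted p = 0.000135). Bmp4 was lower, at a log2 fold change of -0.60 (SE 0.13) and Tgfb2 at -0.73 (SE 0.13). Of 10 receptors, Acvr1b, Acvr2a, Bmpr1a and Bmpr1b were higher and none was lower, with Bmpr1b the most changed at 0.96 (SE 0.11). Of 8 secreted antagonists Twsg1 was higher and Fstl1 and Ltbp1 were lower, a small number read against those shares. Of 13 response genes 4 were lower, among them Id1, a direct BMP target (log2 fold change -0.71, SE 0.10, adjusted p = 0.000237), and 1 was higher.

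Other transcription factors and growth regulators followed. Ccnd2, a D cyclin, was higher in all 5 libraries (log2 fold change 0.90, SE 0.07, adjusted p = 4.05e-06), as were the chromatin organiser Satb1 (0.81), the POU factor Pou3f1 (0.82), the kinesin-like Kif26a (1.04) and the phospholipid transfer protein Pltp (0.81). Of 16 genes of basal identity 9 were higher and 1 lower, where 12.2% of all genes were higher and 12.9% lower. Trp63, the master factor of stratified epithelia, was higher by 0.22 (SE 0.04), against -0.0044 in cells without follicle and sebaceous markers. Sox4, a SoxC factor, was higher by 0.49 (SE 0.04). Among the Grainyhead-like genes Grhl1 was lower (log2 fold change -0.76, SE 0.07, adjusted p = 1.20e-05) and Grhl2 slightly higher (0.18, adjusted p = 0.0431). Grhl3 was at 2.87 CPM in WT 1, 3.43 in WT 2, 1.73 in Grhl3-/- 1, 1.72 in Grhl3-/- 2 and 2.21 in the Chromium v1 WT library and did not pass the test (-0.42, adjusted p = 0.0893).

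Enzymes of lipid metabolism and upper follicle genes were among those lower in these cells. Elovl4, which elongates very long fatty acids of the barrier, stood at 12.4 CPM in WT 1, 26.2 in WT 2, 2.37 in Grhl3-/- 1, 2.69 in Grhl3-/- 2 and 13.2 in the Chromium v1 WT library in the Dcn and Fst positive cells. The other cells had 114, 232, 21.2, 12.9 and 77.8 CPM, several-fold more in each library (log2 fold change -2.96, SE 0.10, adjusted p = 4.13e-09). Cyp2g1, a cytochrome P450, was lower, at -2.88 (SE 0.20) and Psapl1 at -2.37 (SE 0.07). Cidea, a lipid droplet protein of sebocytes, was at 26.6 CPM in WT 1, 20.7 in WT 2, 3.77 in Grhl3-/- 1, 4.53 in Grhl3-/- 2 and 33.8 in the Chromium v1 WT library, against 87.00, 100.5, 21.8, 19.1 and 179.7 (log2 fold change -2.18, SE 0.10, adjusted p = 5.57e-08). The desaturase Scd1 (-1.76), the ceramide synthase Cers4 (-1.71), the elongase Elovl6 (-1.62) and Mgst1 (-1.56) were lower too, and all 5 tested sebaceous markers were lower, with a median of -1.76. The transcription factor Tbx1 (-2.24), the collagen Col14a1 (-1.46), the protease inhibitor Cst6 (-1.64) and Ly6g6c (-1.87) complete the 12 genes with the largest differences within these limits. Of 9 upper follicle genes 6 were lower and none higher, with a median of -0.77, and Krt79, the keratin of the follicle opening, was lower, at -1.22 (SE 0.04). Over all genes 12.2% were higher and 12.9% lower. Against the cells past the Dcn limit alone 4 of 7 tested upper follicle genes were higher, Krt79 among them, and none lower. In that comparison 9.77% of all genes were higher and 9.86% lower. In cells without follicle and sebaceous markers, which leaves out cells with Krt79 or Cidea by construction, Scd1 stood at 0.58 and Elovl6 at 0.10, and neither passed the test.

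Follicle genes as a whole were mixed, and stress keratins were low. Of 24 hair follicle genes 6 were higher and 9 lower, where 12.2% of all genes were higher and 12.9% lower. Sox9 was lower, at -0.22 (SE 0.06) and Lhx2 at -0.53 (SE 0.12), both transcription factors of hair follicle cells. All 10 stress keratin and small proline-rich genes were lower, with a median of -2.77. Krt6a stood at 3.69 CPM in WT 1, 2.59 in WT 2, 2.75 in Grhl3-/- 1, 32.01 in Grhl3-/- 2 and 2.65 in the Chromium v1 WT library, against 2.19, 30.3, 64.7, 254 and 25.7 in the other cells (log2 fold change -3.21, SE 0.33, adjusted p = 3.18e-05). The level in the other cells of Grhl3-/- 2 was far above the rest, and in WT 1 the order of the classes was the opposite. For Krt16 the order was the opposite in WT 1 as well (log2 fold change -1.15, SE 0.38, adjusted p = 0.0428).

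To see which of the limits a gene went with, the cells were set apart by Dcn and Fst. Against the cells past the Dcn limit alone, 2459 of 12522 genes (19.6%) differed, 1224 higher (9.77%) and 1235 lower (9.86%). Against those past the Fst limit alone, 2129 of 12516 (17.0%) differed, 1075 higher (8.59%) and 1054 lower (8.42%). Genes with 1 direction in all 5 libraries made up 27.5% and 26.00% of those tested. Fn1 and Lef1 went with Dcn. Against the cells with Dcn alone they did not pass the test (-0.04, adjusted p = 0.632, and 0.09, adjusted p = 0.260) and against those with Fst alone they were higher (1.78, SE 0.12, and 1.63, SE 0.12). Has3 (1.59), Bmp2 (1.44) and Shh (1.0) were higher than in the cells with Fst alone too. Fzd10 was higher than in either, by 0.40 (SE 0.05) against Dcn alone and 0.92 (SE 0.08) against Fst alone. Shh was lower than in the cells with Dcn alone (log2 fold change -0.53, SE 0.11, adjusted p = 0.00269), as were Lhx2 (-0.80), Id1 (-0.53) and Igfbp7 (-0.90). Sp5 was lower than in those cells too, and Bmp2 was not called. Against the same cells 5 of 11 tested Wnt ligands were higher, Wnt7a and Wnt10b not among them, and 1 was lower. Other genes differed from the cells with Dcn alone. Pou3f1 (1.34), Pthlh, a parathyroid hormone-like peptide (1.25), Kif26a (1.16) and Krtdap (0.93) were higher than in those. Against the cells with Fst alone Pthlh was lower (-1.14, SE 0.15), Kif26a was higher (0.48), and Pou3f1 (0.05) and Krtdap (-0.31) did not pass the test. Sostdc1, an antagonist of BMP and Wnt, was intermediate, as Pthlh was. It was higher than with Dcn alone (log2 fold change 0.69, SE 0.06, adjusted p = 6.19e-07) and lower than with Fst alone (log2 fold change -0.62, SE 0.07, adjusted p = 7.02e-05). Cyp2g1 (-2.39), Cidea (-1.91), Krt79 (-1.46), Sgk1 (-1.44) and Barx2 (-1.31) were lower than with Fst alone. Krt79 and Barx2 were called higher than with Dcn alone, so they were intermediate too. The cells with 1 gene alone were shallower, with median depths of 7656 to 9444 and 7769 to 9122 UMIs.

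**Figure D2:**
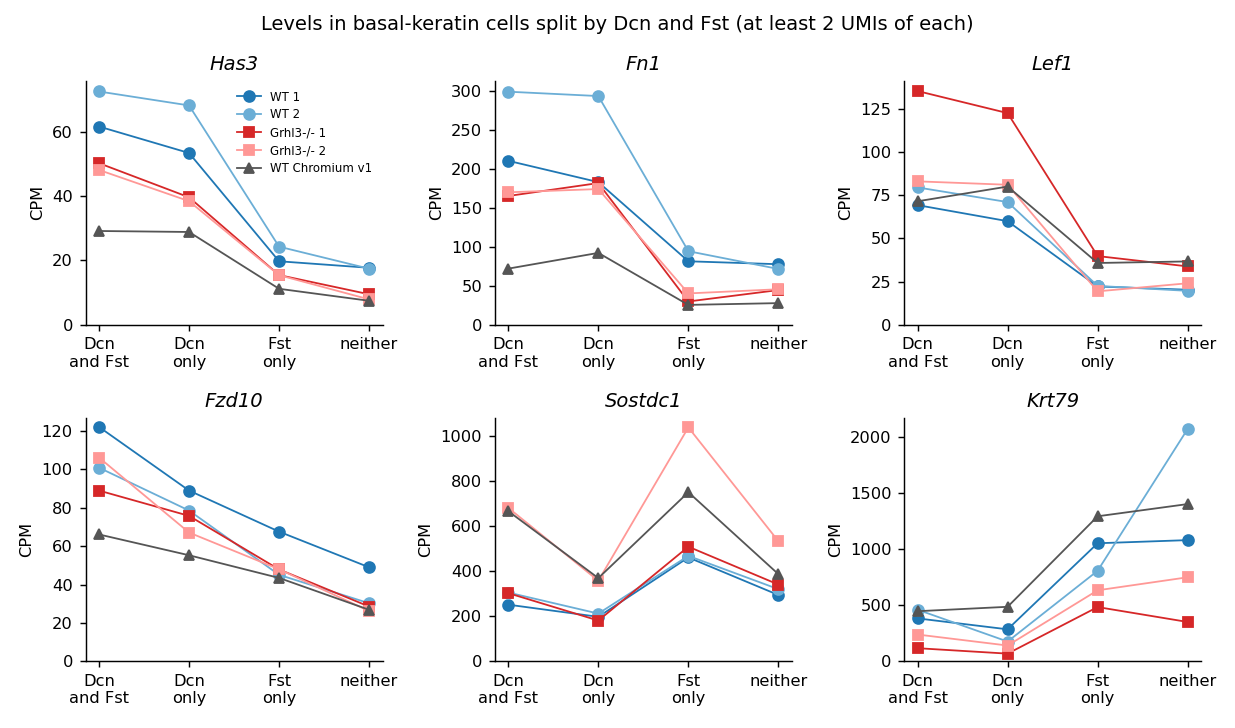
CPM of 6 genes in each library (1 line per library) for basal-keratin cells with at least 2 UMIs of both genes, of Dcn only, of Fst only and of neither. Has3, Fn1 and Lef1 are high in the first pair of classes and low in the second pair, Fzd10 is highest with both genes and lowest with neither, Sostdc1 is highest with Fst only in all 5 libraries, and Krt79 is highest in the classes without Dcn.

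The share of dividing cells was larger among the Dcn and Fst positive cells of every library, in a design too small to pass a threshold of 0.05. A cell was counted as dividing when it had UMIs of at least 3 of 16 genes of mitosis after thinning to 3000 UMIs, a depth that every one of these cells reached. Among the Dcn and Fst positive cells this held for 57.7% in WT 1, 44.3% in WT 2, 44.3% in Grhl3-/- 1, 45.9% in Grhl3-/- 2 and 49.1% in the Chromium v1 WT library. Among the other cells it held for 41.3%, 32.6%, 38.5%, 41.8% and 36.7%, in the same order. The share was higher in 5 of 5 libraries, by 10.1 points on average (SD 5.05, n = 5, 4.11 to 16.4). The two-sided exact sign-flip permutation test gave p = 0.062, which is the smallest that 5 libraries can give. Without thinning the shares were 64.0% and 52.4% on average. Between 5000 and 20000 UMIs the difference was 6.21 points (SD 5.12, 0.89 to 11.7), in 5 of 5 libraries. It was small in both Grhl3-/- libraries, with 39.7% against 38.8% in Grhl3-/- 1 and 41.3% against 40.2% in Grhl3-/- 2. Of the 16 genes, 6 were higher in the summed counts and none lower, among them Cenpf (0.35) and Top2a (0.14). Over all genes 12.2% were higher and 12.9% lower. Of 15 genes of DNA replication, 7 were lower and none higher, among them Mcm6 (-0.20), which was higher in the cells without follicle and sebaceous markers (0.42, adjusted p = 0.0410, edgeR). Against the cells with Dcn alone 2 of the 16 mitosis genes were higher and 2 lower. There 13 of the 15 replication genes were lower and none higher, where 9.77% of all genes were higher and 9.86% lower. Against those with Fst alone 15 mitosis genes were higher and none lower. There 6 replication genes were higher and none lower, where 8.59% of all genes were higher and 8.42% lower.

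The share of Dcn and Fst positive cells did not separate the genotypes. Of the basal-keratin cells, 18.9% were positive in WT 1, 25.2% in WT 2, 24.4% in Grhl3-/- 1 and 23.8% in Grhl3-/- 2. Both Grhl3-/- libraries lay between the WT libraries. The means were 24.1% ± 0.423 (SD, n = 2) in Grhl3-/- and 22.1% ± 4.44 (SD, n = 2) in WT, and the two-sided exact permutation test gave p = 1, where 2 libraries against 2 cannot go below 0.33. In the Chromium v1 WT library the share was 27.4%. Applying the rule to cells thinned to 3000 UMIs left 7.12% in Grhl3-/- and 5.77% in WT (exact permutation p = 0.667).

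**Figure D3:**
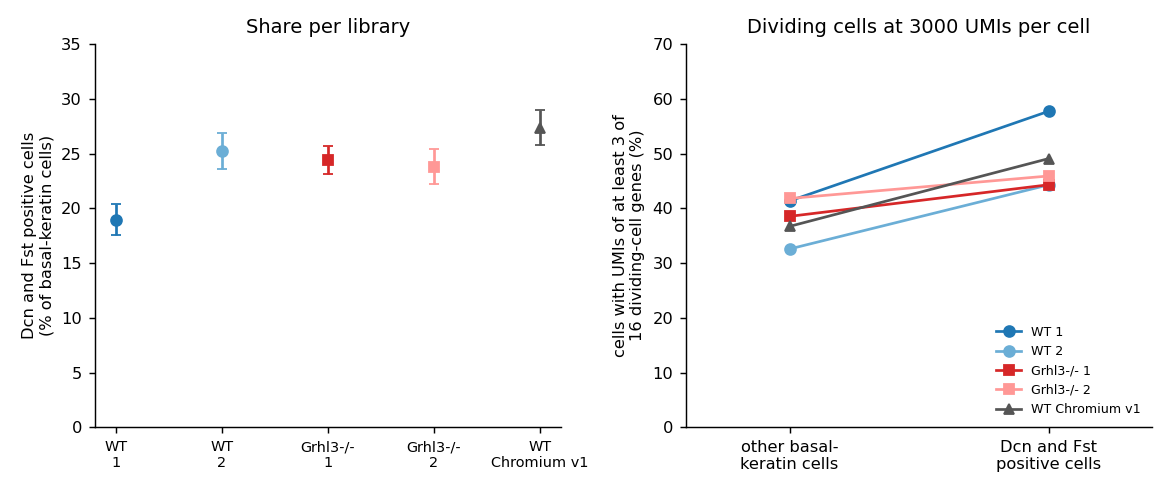
Left, share of basal-keratin cells that were Dcn and Fst positive in each of 5 libraries, with exact 95% binomial intervals for counting error only. Right, share of dividing cells at 3000 UMIs per cell in both classes, 1 line per library, with every line higher for the Dcn and Fst positive cells, by 4.11 to 16.4 points.

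Libraries differed in ways that bear on the genotype comparison. Library totals ran from 49245953 to 107038146 UMIs, and the 4 littermate libraries shared 53 to 96 barcodes in pairs but none with the Chromium v1 library. Grhl3, counted over all kept cells, was at 7.0 and 8.29 CPM in WT, 6.34 CPM in the Chromium v1 WT library, and 2.42 and 2.81 CPM in Grhl3-/-. In the Dcn and Fst positive cells it rested on 28, 37, 27, 16 and 20 UMIs, and reads at the 3′ end may lie outside the deleted part. Of these cells, 451 of 589 in WT 1 and 594 of 709 in WT 2 had at most 5% mitochondrial UMIs, against 987 of 1097 and 617 of 647 in Grhl3-/- and 815 of 817 in the Chromium v1 WT library. The study used a male and a female per genotype, yet the Y-linked Ddx3y and Eif2s3y were at 46.5 to 79.5 CPM in the Dcn and Fst positive cells of all 5 libraries and Xist at 0 to 0.108 CPM. In summed counts, fewer cells of a kind and less RNA per cell cannot be told apart.

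Between genotypes, the Dcn and Fst positive cells of 2 Grhl3-/- and 2 WT libraries differed in 2305 of 12121 tested genes (19%, edgeR), 1207 higher (9.96%) and 1098 lower (9.06%) in Grhl3-/-. Genes whose libraries did not overlap between the genotypes made up 64.6% of those tested. The other basal-keratin cells differed in 3285 of 13307 genes (24.7%) by the same test, 1755 higher (13.2%) and 1530 lower (11.5%), and 68.7% of those genes did not overlap. The count rested on single libraries. It was 202 without WT 1, 1040 without WT 2, 1397 without Grhl3-/- 2 and 1810 without Grhl3-/- 1. With the Chromium v1 WT library added to WT it was 0, with 638 genes at an unadjusted p under 0.05 in edgeR. Among 2304 of the 2305 genes with a value there, 1886 (81.9%) had a Chromium v1 level nearer on the log2 scale to the Grhl3-/- mean than to the WT mean, against 67.8% of all genes tested. In these libraries genotype cannot be told apart from what else set WT 1 and WT 2 apart from the other 3 libraries, and the value of the Chromium v1 WT library is given beside the single genes whose levels between genotypes are given by library. With at most 5% mitochondrial UMIs in each cell 1899 genes differed.

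Among genes within the limits given above, Odc1, Fosb and Stfa3 had the largest differences upward in Grhl3-/-, and the glycolytic enzymes Ldha and Tpi1 were among the first 12. Odc1, the first enzyme of polyamine synthesis, stood at 19.6 and 20.4 CPM in WT and 115 and 119.5 CPM in Grhl3-/- (log2 fold change 2.63, SE 0.15, adjusted p = 0.000121). The Chromium v1 WT library, at 81.04 CPM, lay nearer to Grhl3-/-. Ldha, lactate dehydrogenase A, stood at 144 and 166 CPM in WT and 562 and 586 in Grhl3-/- (log2 fold change 1.97, SE 0.15, adjusted p = 0.000617), with 612 CPM in the Chromium v1 WT library, above both Grhl3-/- libraries. The glycolytic enzyme Tpi1 (1.79), the hypoxia-induced mitochondrial protein Higd1a (1.81) and Fdps of the sterol pathway (1.81) were higher too. For Tpi1, Higd1a and Fdps the Chromium v1 levels were 375, 201 and 213 CPM, all nearer to Grhl3-/- on the log2 scale. With that library added to WT, Fdps stood at -0.061.

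Fosb and Stfa3 set the Chromium v1 library with the WT libraries. The immediate early gene Fosb stood at 17.3 and 30.01 CPM in WT, 89.1 and 142 in Grhl3-/- and 12.8 in the Chromium v1 WT library (log2 fold change 2.35, SE 0.28, adjusted p = 0.00284). Stfa3, a stefin A protease inhibitor from a family of near-identical copies whose reads may be shared, stood at 356 and 276 CPM in WT, 1748 and 876 in Grhl3-/- and 331 in the Chromium v1 WT library (log2 fold change 2.15, SE 0.31, adjusted p = 0.00500). For both genes the WT levels of all 3 libraries lay below both Grhl3-/- levels. The remaining genes of the 12 with the largest differences were Gadd45b (2.08), the actin-binding Cotl1 (1.85), the kallikrein Klk10 (1.73) and the histone genes Hist1h2bc (1.85) and Hist3h2ba (1.70). Of 14 genes of the response to tissue dissociation 8 were higher in Grhl3-/- and none lower, with a median of 0.69 against -0.02 over all genes. Jun (0.88) and Fos (0.71) were among them, where 9.96% of all genes were higher. The Chromium v1 level of Atf3, Ier2, Ier3, Jun, Junb and Zfp36 was nearer to Grhl3-/- on the log2 scale, and that of Fos and Fosb nearer to WT.

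Downward, Krtap17-1, a keratin-associated protein of the hair, had the largest difference within these limits. It stood at 89.1 and 94.01 CPM in WT and 1.22 and 2.69 in Grhl3-/- (log2 fold change -5.56, SE 0.27, adjusted p = 0.000106), and at 6.17 in the Chromium v1 WT library. Tsc22d3, the glucocorticoid-induced leucine zipper, stood at 108 and 166 CPM in WT and 15.8 and 14.8 in Grhl3-/- (log2 fold change -3.08, SE 0.23, adjusted p = 0.000582). The Chromium v1 WT library was lower still, at 5.07 CPM. Of 8 glucocorticoid response genes 5 were lower, among them Sgk1 (-2.0), Klf9 (-0.94) and Zbtb16 (-0.80), and Dusp1 was higher (0.85), with a median of -0.78, where 9.06% of all genes were lower and 9.96% higher.

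The other genes with large decreases were Pcsk2 (-3.29), a prohormone convertase, Trp53inp1 (-2.22), Sh3d21 (-2.17), the hairless corepressor Hr (-2.10), Tns4 (-2.04), a tensin of cell adhesions, and the matrix protein Abi3bp (-2.01). Snhg9, Ahnak and Hes1 differed strongly between the WT libraries. Snhg9, a small RNA host gene, stood at 201 and 39.3 CPM in WT 1 and WT 2 and at 23.03 and 20.3 in Grhl3-/- (log2 fold change -2.37, SE 0.59, adjusted p = 0.0253). Ahnak, a giant scaffold protein, stood at 1358 and 536 and at 237 and 182 (log2 fold change -2.08, SE 0.37, adjusted p = 0.00872). Hes1, an effector of Notch, stood at 345 and 157 and at 42.2 and 72.7 (log2 fold change -2.06, SE 0.35, adjusted p = 0.00779). WT 1 was the highest library for each of these, and WT 2 still lay above both Grhl3-/- libraries. In the Chromium v1 WT library Snhg9 was at 36.4, Ahnak at 156 and Hes1 at 65.9 CPM, each nearer to the Grhl3-/- mean on the log2 scale.

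**Figure D4:**
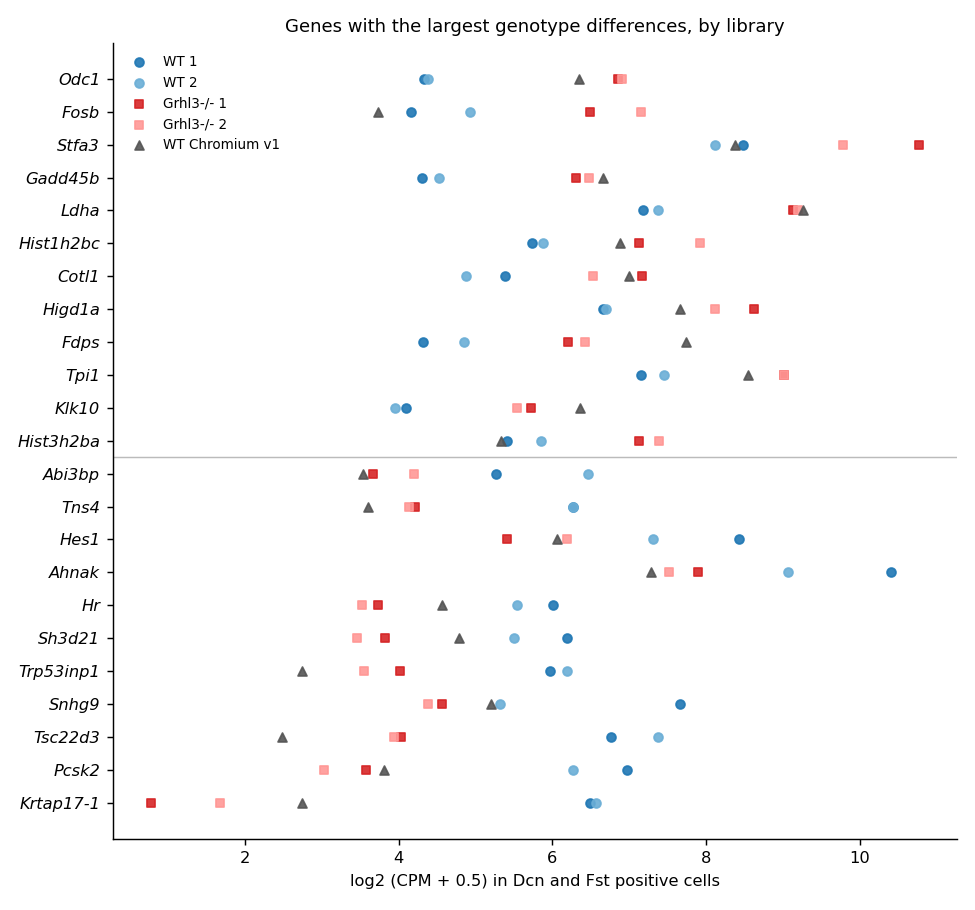
Log2 of CPM (with 0.5 added) in Dcn and Fst positive cells, 1 point per library, for genes among the 12 with the largest genotype difference in each direction, 12 higher and 11 lower. Circles (WT) and squares (Grhl3-/-) do not overlap for any of the 23 genes, which was a condition for choosing them. The Chromium v1 WT library (triangles) lies nearer to the Grhl3-/- mean for 19 of the 23 genes.

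Some Wnt pathway genes differed between genotypes. Of 11 tested ligands 4 were higher in Grhl3-/- and none lower, with a median of 0.63, where 9.96% of all genes were higher. Wnt3a stood at 2.87 and 2.87 CPM in WT and 13.2 and 5.39 in Grhl3-/- (log2 fold change 1.82, SE 0.43, adjusted p = 0.0219), and at 8.05 in the Chromium v1 WT library. Wnt3 was higher by 0.55, Wnt10a by 0.63 and Wnt5a by 1.63. Of 25 receptors and effectors 5 were lower and none higher, a called share near the 19% over all genes. Axin2 stood at 106 and 81.97 CPM in WT and 27.6 and 33.6 in Grhl3-/- (log2 fold change -1.54, SE 0.17, adjusted p = 0.00235), and at 18.6 in the Chromium v1 WT library, below both. Sp5 was lower, at -1.67 (SE 0.46, adjusted p = 0.0372), but its Chromium v1 level of 50.2 CPM lay above both WT libraries. Lgr5 (-1.01), Lgr6 (-0.69) and Fzd6 (-0.92) were lower. Lef1, at 69.2 and 79.5 CPM in WT and 135 and 82.98 in Grhl3-/-, did not pass the test (0.65, adjusted p = 0.0841), with 71.4 in the Chromium v1 WT library.

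Single signalling, matrix and basal genes differed by genotype. The matrix counts lay somewhat above the share over all genes and the basal counts near or below it. Bmp2 stood at 111 and 139.7 CPM in WT and 46.1 and 82.8 in Grhl3-/- (log2 fold change -0.90, SE 0.24, adjusted p = 0.0334), with 42.8 in the Chromium v1 WT library, below both, and Bmp7 (-0.60) and Tgfb2 (-0.90) were lower as well. Among matrix genes Vcan, a chondroitin sulfate proteoglycan (1.53), Postn (0.94) and Sparc (0.62) were higher, and Tnc (-1.29), Lamb3 (-0.68), Frem1 and Thbs1 were lower. These 3 higher and 4 lower of 28 tested stand beside 9.96% and 9.06% over all genes. Of 16 genes of basal identity 1 was higher and 2 were lower. Dst, the plakin of hemidesmosomes, was lower, at -1.38 (SE 0.18), the only one of 14 genes of hemidesmosomes and integrins to pass. Trp63 stood at 416 and 421 CPM in WT and 212 and 196 in Grhl3-/- (log2 fold change -0.95, SE 0.15, adjusted p = 0.00599), with 186 in the Chromium v1 WT library. Gpc3, a marker by which the class was named, was lower, at -0.90 (SE 0.18, adjusted p = 0.0124), while Smoc2 (-0.07) and Lmo1 (0.40) did not pass the test.

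Some follicle, Notch and guidance genes were lower, and many replication genes were higher, where 9.06% of all genes were lower and 9.96% higher. Of 23 hair follicle genes 11 were lower, with a median of -0.76, among them Barx2 (-1.22), Lhx2 (-0.99) and the vitamin D receptor Vdr (-0.97). Only Krt17 was higher (0.62). Of 9 Notch genes Hes1, Notch2 (-1.76) and Notch3 (-0.99) were lower, and of 14 guidance and adhesion genes 6 were lower, among them Sema3c (-1.35) and Robo1 (-0.78). Of 15 replication genes 9 were higher and none lower, with a median of 0.90, among them Mcm2 (1.09), Pcna (0.95) and Uhrf1 (0.90). The Chromium v1 levels of Mcm2, Pcna and Uhrf1 were 93.1, 184 and 73.98 CPM, nearer to Grhl3-/-. With that library added to WT the sign turned for Pcna (-0.10), Krt17 (-0.14) and Cd74 (-0.41). The mitosis list had no gene higher and 1 lower, of 16. Among the Grainyhead-like genes Grhl1 stood at 30.6 and 28.9 CPM in WT and 7.68 and 14.9 in Grhl3-/- (log2 fold change -1.36, SE 0.26, adjusted p = 0.0103). The Chromium v1 WT library, at 12.2 CPM, lay between both Grhl3-/- libraries. Grhl2 (-0.01, adjusted p = 0.974) and Grhl3 (-0.78, adjusted p = 0.144) did not pass the test. Of the markers of other cell types, Cidea (-2.44), Pparg (-2.12) and Scd3 (-4.82) of sebocytes and Col5a2 of fibroblasts (-0.77) were lower, and Cd74 of Langerhans cells (0.79) and Hbb-bs of blood cells (3.07, at 0 to 6.68 CPM) were higher. Their part in these differences was not tested.

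Whether a genotype difference belonged to these cells more than to their neighbours was tested by the interaction of class and genotype. Of 13443 genes 226 passed (1.68%, edgeR), 135 with a higher term (1.0%) and 91 with a lower one (0.677%). A higher term means that Grhl3-/- stood higher against WT in the Dcn and Fst positive cells than in the other cells. Of the 226 genes 97 were also called between genotypes in the Dcn and Fst positive cells and 108 in the other cells, and 80 in neither. The count was 46 by DESeq2, 501 between 5000 and 20000 UMIs, 442 without Grhl3-/- 2 and 12 in the cells without follicle and sebaceous markers, and 42.8% of all genes tested had ratios of the classes that did not overlap between genotypes. Odc1 had a log2 fold change of 2.63 in the Dcn and Fst positive cells and 2.21 in the others (interaction adjusted p = 0.0497, edgeR), and Ldha 1.97 and 1.99 (interaction adjusted p = 0.968, edgeR).

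Scd1, the desaturase, had the largest higher term within these limits (log2 fold change 1.29, SE 0.11, adjusted p = 4.09e-05), and Msmo1 of the sterol pathway had one too (1.12), which turned to -1.49 in cells without follicle and sebaceous markers. For Scd1 the change passed the test in the other cells, at -1.45 (adjusted p = 0.00510), against -0.18 (adjusted p = 0.643) in the Dcn and Fst positive cells. Mgll, a monoacylglycerol lipase (1.17), followed the same pattern, with -0.94 and 0.21.

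Other genes had their larger change in the Dcn and Fst positive cells. Calm4, a calmodulin-like protein of keratinocytes, differed between genotypes by 0.91 in these cells (adjusted p = 0.0192) and by -0.23 in the others (adjusted p = 0.143). Rhoc, a small GTPase of cell movement, differed by 0.75 and -0.16. Lgr5 stood at 31.8 and 27.7 CPM in these cells of WT and at 12.3 and 15.9 CPM in Grhl3-/-. In the other cells it stood at 52.4, 59.0, 53.8 and 50.8 CPM, with the genotypes overlapping (interaction log2 fold change -1.02, SE 0.14, adjusted p = 0.00109). The Chromium v1 WT library, which is not in this test, had 6.28 CPM in these cells, below both Grhl3-/- libraries, and 18.9 CPM in the other cells. Tgfb2 (-0.90 against -0.12), Vdr (-0.97 against -0.11), Barx2 (-1.22 against -0.47), Lhx2 (-0.99 against -0.32) and the kinase Sgk1 (-2.0 against -1.26) were lower in these cells by more than in the others. The gap junction gene Gjb2 was lower in these cells (-0.95, adjusted p = 0.00872) and did not pass the test in the others (0.39, adjusted p = 0.0549, and interaction log2 fold change -1.32, SE 0.11, adjusted p = 2.22e-05). Among signalling genes Wnt7b (log2 fold change 0.55, SE 0.10, adjusted p = 0.00915) and Wnt6 (0.37) had higher terms. The matrix genes Vcan (0.47) and Sparc (0.33) and the keratin Krt17 (0.61) had higher terms too. In cells without follicle and sebaceous markers the term turned for Tgfb2 (1.01), Vdr (0.71), Gjb2 (0.086) and Vcan (-0.29), and without dividing genes for Sgk1 (0.68).

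The pigment genes Dct (0.99), Mlana (1.13) and Pmel (0.87) and the melanocyte-rich Ptgds (0.89) had higher terms as well. So did 5 of 6 melanocyte markers, where 1.0% of all genes had a higher term. The summed melanocyte markers were 576 and 332 CPM in the Dcn and Fst positive cells of WT, against 916 and 595 CPM in the other cells. In Grhl3-/- they were 302 and 726 CPM, against 299 and 549 CPM, and in the Chromium v1 WT library 369.7 CPM, against 455 CPM. These are transcripts of melanocytes, and the part of their RNA in the other interaction terms was not tested. Krt16 had the largest term within these limits (log2 fold change -2.74, SE 0.36, adjusted p = 0.000656), with 172 CPM in the other cells of Grhl3-/- 2 and 8.06 to 59.0 CPM in the rest of the 4 littermate libraries. In the Chromium v1 WT library Krt16 was at 43.2 CPM in the Dcn and Fst positive cells and 67.5 CPM in the others.

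**Figure D5:**
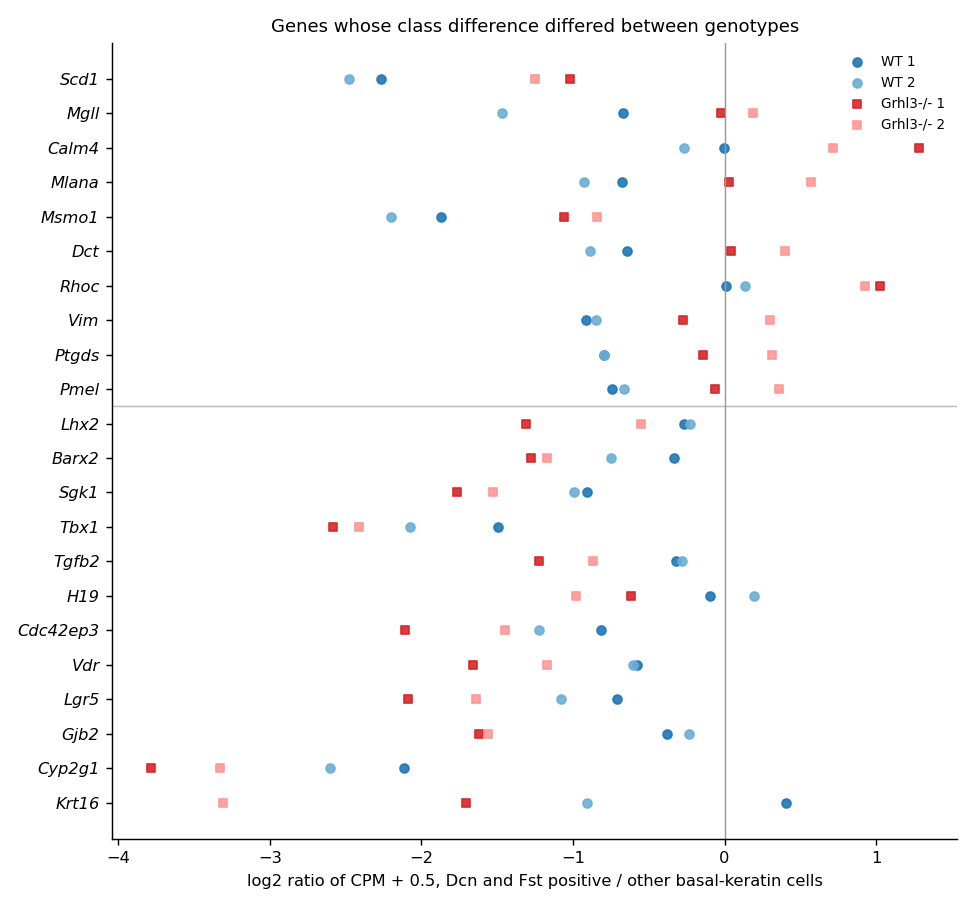
Log2 ratio of CPM (with 0.5 added) between Dcn and Fst positive cells and the other basal-keratin cells in each of the 4 littermate libraries, for genes among the 12 with the largest interaction term in each direction, 10 higher and 12 lower. The squares (Grhl3-/-) lie to the right of the circles (WT) for the upper 10 genes and to the left for the lower 12, without overlap. The lack of overlap was a condition for choosing these genes.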

How the data were processed

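The authors deposited raw UMI counts for 27998 genes per barcode and library, made with Cell Ranger 1.3.1 (per the labels) on mm10. Counts were read in Python 3.11.15 and summed per class and library. Genes were tested with edgeR 4.0.16 in R 4.3.3 (filterByExpr, TMM, quasi-likelihood test, Benjamini-Hochberg adjusted p under 0.05), with the library as a block between classes, Grhl3-/- against WT over 2 and 2 libraries, and the interaction of both. The fits recovered known changes in simulated counts drawn from a common profile with little spread between libraries. This says nothing on the spread between the real libraries. Cells were clustered per library with 3000 variable genes and 30 components. Doublets were scored with Scrublet and removed as an alternative only. The named genes were the 12 with the largest log2 fold change in each direction among called genes, where the average over libraries reached 5 on the log2 CPM scale and libraries that did not overlap (between classes, 1 direction in every library), without the rule's genes and mitochondrial, ribosomal and unnamed genes, plus genes of 30 lists and 10 marker lists. The cells and lists were chosen with earlier results of these data known. Coordinates are GRCm38, matched by gene identifier. Intervals cover counting error only. Some genes that met the rule are not reported here.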

Additional observations from a re-analysis of the deposited data

Results flagged for a closer look

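For 22 genes the Grhl3-/- against WT difference in the Dcn and Fst positive cells was not the same as in the other basal-keratin cells, by the interaction test in edgeR (2 libraries per genotype). They are among the 12 with the largest term in each direction, 10 higher and 12 lower, and the values are differences of log2 fold changes. Terms were higher for Scd1 (1.29), Mgll (1.17), Calm4 (1.15), Mlana (1.13), Msmo1 (1.12), Dct (0.99), Rhoc (0.93), Vim (0.90), Ptgds (0.89) and Pmel (0.87). Terms were lower for Krt16 (-2.74), Cyp2g1 (-1.63), Gjb2 (-1.32), Lgr5 (-1.02), Vdr (-0.86), Cdc42ep3 (-0.83), H19 (-0.83), Tgfb2 (-0.78), Tbx1 (-0.75), Sgk1 (-0.72), Barx2 (-0.70) and Lhx2 (-0.69). The term of H19 turned to 1.31 (adjusted p = 1.27e-09, edgeR) between 5000 and 20000 UMIs. No group had the 4 libraries needed to test for a library far from the others.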

How the results depend on the processing

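Alternatives that took cells without follicle and sebaceous markers, cells without dividing genes, or cells with 1 of the 2 genes were added after seeing the data. Between classes, 3404 genes differed. The count was 1970 by DESeq2, 1946 between 5000 and 20000 UMIs, 1927 in the WT libraries only, 2129 against cells with Fst alone, 476 without dividing genes, 299 without follicle and sebaceous markers, and 2314 to 3663 with 1 library left out. Between genotypes it was 2305, with 240 without follicle and sebaceous markers, 453 without dividing genes, 0 with the Chromium v1 library added to WT (638 at an unadjusted p under 0.05 in edgeR, 1860 by DESeq2 without that library), and 202 to 1810 with 1 library left out, the lowest without WT 1, then 1040 without WT 2 and 1397 without Grhl3-/- 2. The interaction count of 226 became 46 by DESeq2, 509 with no filter on low counts, 99 with limits of 3 UMIs, 114 at 5% mitochondrial UMIs, 501 between 5000 and 20000 UMIs, 124 against cells with no Dcn and Fst UMI, 12 without follicle and sebaceous markers, 5 without dividing genes, and 164 to 442 with 1 library left out, the highest without Grhl3-/- 2. The cause of these changes was not tested, although the subsets hold fewer cells and genes tested. The direction of the share and of the dividing share is as given in the report.

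With the replicate block the genotype count was 2729. Deviations of samples with the same number had a correlation of 0.0496 over 12127 genes, 1 value by construction with 2 libraries per genotype, and nothing else ties them, so they are taken to share only a number.

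In the cells without follicle and sebaceous markers the class log2 fold change turned for Scd1 (0.58), Elovl6 (0.10), Axin2 (-0.092), Col17a1 (-0.17), Fzd7 (0.33), Mcm6 (0.42), Postn (-0.13), Sfrp1 (0.18), Trp63 (-0.0044), Wnt3 (-0.22) and Wnt4 (-0.71). It also turned without dividing genes for Mcm6 (0.51) and Wnt4 (-0.37), and between 5000 and 20000 UMIs for Wnt4 (-0.12). With the Chromium v1 library added to WT, the genotype difference turned for Fdps (-0.061), Cd74 (-0.41), Krt17 (-0.14) and Pcna (-0.10), and without follicle and sebaceous markers for Cd74 (-2.25). The interaction term turned without those markers for Msmo1 (-1.49), Vim (-0.14), Gjb2 (0.086), Vdr (0.71), Cdc42ep3 (1.66), H19 (0.84), Tgfb2 (1.01) and Vcan (-0.29). It turned without dividing genes for Cyp2g1 (1.58), H19 (0.71), Tbx1 (0.47) and Sgk1 (0.68), and between 5000 and 20000 UMIs for H19 (1.31, adjusted p = 1.27e-09).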
